A study of Homo sapiens with 24 samples.

Results

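The genes described are the nuclear genes of the mitochondrial respiratory chain and ATP synthase, complexes I to V, in 4 human leukaemia cell lines. Members were taken by symbol: every gene with a probe set of its own whose symbol starts with NDUFA, NDUFB, NDUFC, NDUFS, NDUFV, UQCR, COX4 to COX8 or ATP5, and SDHA to SDHD, leaving out the NDUFAF assembly factors. This gave 82 of the 19775 genes on the array, of which 77 are subunit genes, 3 are noncoding RNAs named after a neighbouring subunit gene and 2 are pseudogenes. The lines RPMI-8402, TALL-1, P12-ICHIKAWA and SUPT11 derive from T-cell acute lymphoblastic leukaemia (T-ALL), a cancer of immature T cells. Each line received the compound NVS-ZP7-3 or its solvent for 16 h, and all 24 samples held 0.5% DMSO, controls included. With 4 lines and both treatments there were 8 groups, of 3 arrays each. The labels name neither a dose nor a target of the compound, and they do not say whether the 3 arrays of a group came from separate cultures, so p-values measure only the spread between these arrays, which may be technical.

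The respiratory chain sits in the inner mitochondrial membrane. Complex I takes electrons from NADH and complex II from succinate, ubiquinone carries them to complex III, and cytochrome c carries them on to complex IV, which reduces oxygen. Complexes I, III and IV pump protons as they do so, and complex V, the ATP synthase, uses the returning protons to make ATP. Most subunits are encoded in the nucleus and a few in the mitochondrial genome, so each complex other than complex II is built from both sources.

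Levels are log2 intensities as deposited, on which an undetected probe set lies at a floor of 2.18. Of the 77 subunit genes, 70 reached log2 4 on at least 3 arrays and were tested with the 10661 genes that passed that filter: 33 of complex I, 3 of complex II, 6 of complex III, 11 of complex IV and 17 of complex V. Of the other members, the noncoding RNA NDUFB2-AS1 was tested as well and was not called in any line, with changes between -0.29 and 0.16. The subunit genes were among the bright ones: 57 of 70 averaged log2 12 or more over the arrays. A gene was called at an adjusted p under 0.05 (limma, Benjamini-Hochberg over all genes tested), and a change is the log2 difference of NVS-ZP7-3 minus DMSO. All 17 measured markers of T cells and thymocytes passed the filter, and 10 to 15 of them reached it in a given group. Of these markers 8 fell in TALL-1 (47.1%), 5 in RPMI-8402 (29.4%) and 4 in P12-ICHIKAWA (23.5%). Over all genes tested the shares that fell were 19.6%, 21.5% and 2.98%. Log2 4 was reached on no array by 6 of 7 epithelial and stromal, 3 of 7 myeloid, 3 of 5 erythroid and platelet and 1 of 3 B cell markers.

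The subunit genes were mostly lower with NVS-ZP7-3 in RPMI-8402 and changed in both directions in TALL-1. Few were called in P12-ICHIKAWA and 0 in SUPT11. In RPMI-8402, 37 of 70 fell (52.9%) and 0 rose, where 21.5% of all genes tested fell and 15.1% rose. In TALL-1, 22 fell (31.4%) and 5 rose (7.14%), where 19.6% of all genes fell and 22.3% rose. In P12-ICHIKAWA, 2 fell and 0 rose, against 2.98% and 4.91% of all genes. In SUPT11, 0 were called in either direction by limma, against 0.582% lower and 1.18% higher over all genes. At an unadjusted p under 0.05 (limma) 1 of the 70 was lower and 0 were higher in SUPT11, or 1.43% of the subunit genes against 8.7% of all genes in either direction. In P12-ICHIKAWA 13 of the 70 were lower and 1 was higher at that threshold. Over all 10661 genes tested, 956 were lower and 1170 higher there. In either direction this was 20% of the subunit genes against 19.9% of all genes.

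The changes were small. The median over the 70 genes was -0.16 in RPMI-8402, -0.09 in TALL-1, -0.03 in SUPT11 and -0.06 in P12-ICHIKAWA, where the median of all genes tested was -0.02 in RPMI-8402 and within 0.0001 of 0 in the other lines. In RPMI-8402 the change was negative for 66 of the 70 genes, in P12-ICHIKAWA for 58, in SUPT11 for 52 and in TALL-1 for 48. Bright genes were called lower more often than others. Among the 2843 genes that averaged log2 12 or more, 23.6% fell in RPMI-8402 and 27.2% in TALL-1, so the share of subunit genes that fell in TALL-1 lay close to that of genes of like brightness. On average over the 4 lines 40 of 70 fell and 1 rose, against 24.5% and 22.4% of all genes. In a bulk sample, fewer cells that express a gene and less of its RNA per cell cannot be told apart.

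Array quality moved with the treatment in the lines with most calls. The difference between 3-prime and 5-prime control probe sets of ACTB, which grows as RNA is shortened or copied incompletely, was on average higher with NVS-ZP7-3 by 0.30 in RPMI-8402, 0.49 in TALL-1, 0.05 in SUPT11 and 0.04 in P12-ICHIKAWA. With that difference as a covariate, the members called went from 27 to 7 in TALL-1 (2 higher, 5 lower) and from 37 to 20, all lower, in RPMI-8402. Over all genes tested, the same covariate left 1634 rises and 1592 falls in TALL-1 in place of 2377 and 2094, and 1215 and 1901 in RPMI-8402 in place of 1610 and 2296. The 3 arrays that carried transcripts foreign to their line were TALL-1 NVS-ZP7-3 replicate 2, SUPT11 NVS-ZP7-3 replicate 2 and RPMI-8402 DMSO replicate 3. Without them, the members called numbered 17 in place of 27 in TALL-1 and 1 in place of 2 in P12-ICHIKAWA. Over all genes tested, leaving them out gave 2034 rises and 1824 falls in TALL-1 in place of 2377 and 2094. In P12-ICHIKAWA it gave 461 and 247 in place of 523 and 318. The interaction test called 4 members in place of 9, and was not counted over all genes in this setting. The part of RNA quality in the changes was not tested beyond these values.

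Transcripts of blood cells also varied among arrays. The haemoglobin gene HBB was on average higher with NVS-ZP7-3 by 6.97 in P12-ICHIKAWA, 3.57 in SUPT11, 1.90 in RPMI-8402 and 1.88 in TALL-1. It was called in no single line, and was called higher on average over the lines (limma). DMSO arrays other than those of RPMI-8402 read 2.18 to 2.32. Treated arrays read 7.96 to 11.45 in P12-ICHIKAWA. In SUPT11 they read 2.18, 10.61 and 4.58, and in TALL-1 7.96, 2.18 and 2.18. In RPMI-8402 DMSO arrays read 9.42, 2.32 and 14.65 and treated arrays 10.48, 8.63 and 12.99. The summed level of 5 erythroid and platelet markers (log2 of the summed intensities) ran from 4.53 to 14.66 on DMSO arrays and from 8.70 to 12.99 on treated arrays of RPMI-8402, and that of 7 myeloid markers from 4.99 to 12.73 and from 5.84 to 9.93. The highest of both was DMSO replicate 3. Without this array 38 members were called in RPMI-8402, and with HBB as a covariate 37, all lower. Over all genes tested, the HBB covariate left 1570 rises and 2168 falls in RPMI-8402 in place of 1610 and 2296. In P12-ICHIKAWA it left 286 and 102 in place of 523 and 318. In TALL-1 the erythroid and platelet sum ran from 4.50 to 4.53 with DMSO and from 4.50 to 8.06 with NVS-ZP7-3. Its myeloid sum ran from 4.99 to 8.71 and from 4.99 to 9.13. In SUPT11 the erythroid and platelet sum ran from 4.50 to 4.53 with DMSO and from 4.50 to 10.62 with NVS-ZP7-3. Its myeloid sum ran from 4.99 to 5.67 and from 4.99 to 7.23.

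**Figure D1:**
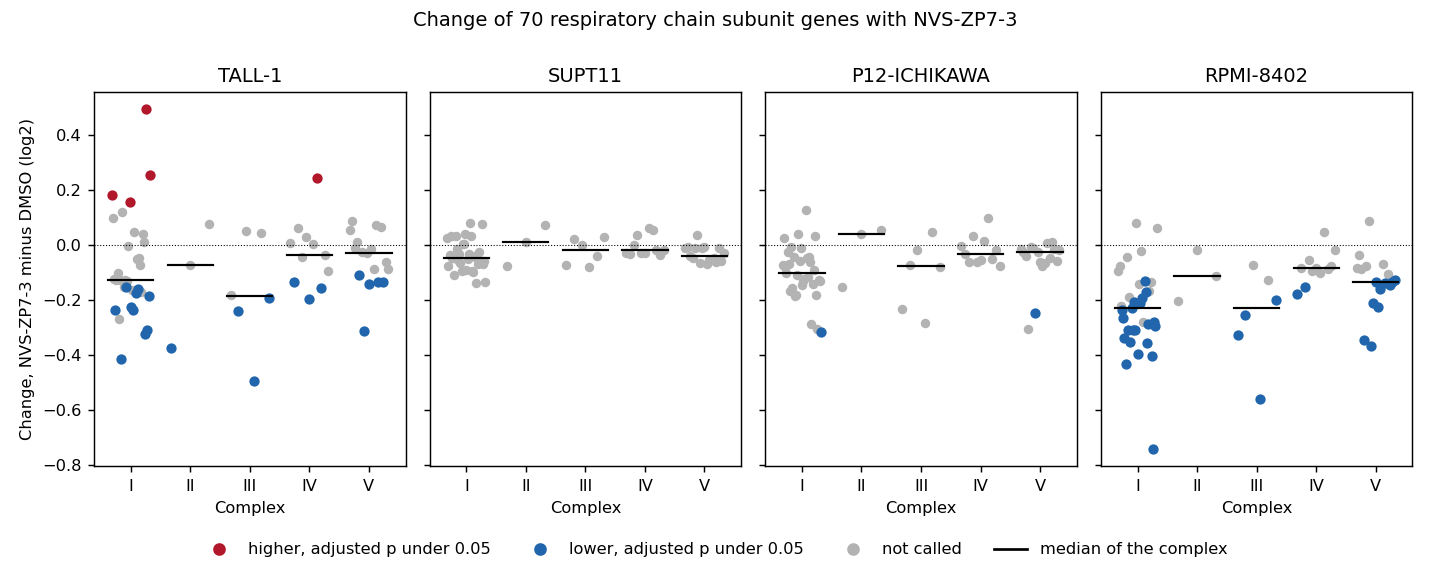
Change in log2 intensity (NVS-ZP7-3 minus DMSO) of each of the 70 subunit genes by complex, 1 panel per line. Coloured points had an adjusted p under 0.05 and bars are the median of a complex, which was -0.23 for complex I and for complex III in RPMI-8402 and -0.08 for complex IV.

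Complex I had the most genes called and also the most genes tested. In RPMI-8402, 21 of its 33 tested genes fell (63.6%), beside 66.7% for complex III, 58.8% for complex V and 21.5% of all genes. In TALL-1 10 fell (30.3%) and 4 rose (12.1%), where 19.6% of all genes fell and 22.3% rose. Of genes averaging log2 12 or more, 27.2% fell in TALL-1, which is near the share of complex I. NDUFS7 encodes a core subunit that carries the iron-sulfur cluster next to the ubiquinone site, and its levels in RPMI-8402 were 7.33, 7.65 and 7.38 with DMSO and 6.79, 6.61 and 6.74 with NVS-ZP7-3. All treated arrays lay below all DMSO arrays, and the change was -0.74 (SE 0.19, adjusted p = 0.00526, limma), or 0.598 of the DMSO level. In TALL-1 NDUFS7 read 6.43, 5.54 and 5.78 with DMSO and 6.36, 6.38 and 6.49 with NVS-ZP7-3. There the groups overlapped through the first DMSO array, and the rise of 0.49 (SE 0.19, adjusted p = 0.0483, limma) was lost in 12 of 19 alternative analyses, among them without DMSO replicate 2 or 3 or any single treated array. In P12-ICHIKAWA its treated arrays were all lower (change -0.31, adjusted p = 0.423, limma), and in SUPT11 the change was 0.08.

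Among genes of the module that oxidises NADH, NDUFV1, NDUFV2 and NDUFS6 fell in both TALL-1 and RPMI-8402, and NDUFS1 and NDUFA2 in RPMI-8402. NDUFS4 and NDUFA7 were called in neither. NDUFV3, described below, rose in TALL-1 (0.26) and was not called in RPMI-8402 (0.06). NDUFV1 encodes the flavoprotein that binds NADH, and in TALL-1 it read 11.82, 11.54 and 11.51 with DMSO and 11.16, 11.39 and 11.39 with NVS-ZP7-3. The groups did not overlap, with a change of -0.31 (SE 0.09, adjusted p = 0.0125, limma), and in RPMI-8402 the change was -0.28 (adjusted p = 0.0249, limma). Its partner NDUFV2, which carries an iron-sulfur cluster, fell by 0.19 in TALL-1 and by 0.29 in RPMI-8402. NDUFS1, the large iron-sulfur subunit, fell by 0.29 in RPMI-8402 and was not called in TALL-1 at -0.17. NDUFS6, an accessory subunit of the same module, read 13.91, 13.84 and 13.80 with DMSO and 13.34, 13.34 and 13.67 with NVS-ZP7-3 in RPMI-8402. Its change was -0.40 (SE 0.08, adjusted p = 0.000983, limma) there and -0.32 (adjusted p = 0.00471, limma) in TALL-1, without overlap in either line. The NDUFS6 call in TALL-1 was lost with the ACTB covariate (-0.09, adjusted p = 0.618, limma) and with that line fitted alone. The call of NDUFV1 was lost in TALL-1 without DMSO replicate 1 (-0.21) or NVS-ZP7-3 replicate 1 (-0.23), and in RPMI-8402 without DMSO replicate 2 (-0.22) or NVS-ZP7-3 replicate 1 or 2 (-0.24 in both). It was also lost in both lines with the ACTB covariate (-0.34 and -0.30) and with each line fitted alone. With the mean of its probe sets the change was -0.15 in TALL-1 and -0.14 in RPMI-8402, and both were called.

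Several accessory subunits moved with them. NDUFA6, a small LYR-motif protein that binds the acyl carrier protein, read 13.07, 12.89 and 12.94 with DMSO in TALL-1 and 12.41, 12.60 and 12.64 with NVS-ZP7-3. The treated arrays were all lower, and the change of -0.42 (SE 0.07, adjusted p = 6.64e-05, limma) was called in all 19 alternative analyses. In RPMI-8402 it fell by 0.31, in P12-ICHIKAWA the change was -0.16 (not called), and in SUPT11 it was -0.01 (not called). NDUFAB1, the mitochondrial acyl carrier protein itself, fell by 0.31 in RPMI-8402 and by 0.15 in TALL-1. NDUFA12 fell by 0.24 in TALL-1 and by 0.23 in RPMI-8402, with all 3 treated arrays below the DMSO arrays in both lines. NDUFB2, a small subunit of the membrane arm, read 12.24, 12.44 and 12.29 with DMSO in RPMI-8402 and 11.91, 11.87 and 12.002 with NVS-ZP7-3, a change of -0.39 (SE 0.08, adjusted p = 0.000505, limma). NDUFA3 fell by 0.43 and NDUFB10 by 0.31 in RPMI-8402, and neither was called in TALL-1 (-0.27 and within 0.01 of 0).

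A few complex I genes went the other way in TALL-1. NDUFV3, an accessory subunit of the flavoprotein part, read 8.94, 8.66 and 8.57 with DMSO and 8.81, 8.99 and 9.14 with NVS-ZP7-3, a rise of 0.26 (SE 0.09, adjusted p = 0.0330, limma) with overlapping groups. Its other single-gene probe set moved further in TALL-1 (0.64). In P12-ICHIKAWA the probe set used here fell from 10.49, 10.64 and 10.59 to 10.33, 10.26 and 10.19 (change -0.31, adjusted p = 0.0436, limma), while the other read 0.06. The P12-ICHIKAWA call was lost in 12 of 19 alternative analyses and the TALL-1 call in 9. NDUFA1 rose by 0.18 and NDUFB11 by 0.16 in TALL-1. Both encode membrane-arm subunits, and their treated arrays lay above all DMSO arrays. The call of NDUFB11 was lost in 9 of 19 alternatives, median centring (0.11) and quantile normalization (0.13) among them.

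Complex II links the citric acid cycle to the chain and has no mitochondrially encoded subunit. SDHA, its flavoprotein, read 12.22, 11.92 and 11.89 with DMSO in TALL-1 and 11.60, 11.70 and 11.61 with NVS-ZP7-3. All treated arrays were lower, with a change of -0.37 (SE 0.09, adjusted p = 0.00242, limma), and the call stood in all 18 alternatives that could be computed. The probe set of SDHA is of a kind that can also bind related transcripts (its name ends in _x_at). In RPMI-8402 SDHA was not called (-0.20, adjusted p = 0.0892, limma), though its treated arrays were all lower. The membrane anchors SDHC and SDHD were not called in any line by the probe sets used, with changes between -0.11 and 0.08. Probe sets of SDHC disagreed in RPMI-8402, where the one used read -0.02. Dimmer ones read -0.17, -0.15 and -0.22 there (adjusted p = 0.0326, 0.0172 and 0.0114, limma over probe sets). The dimmest were not called (-0.20, 0.13 and 0.30). SDHB was not analysed here.

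In complex III, 4 of 6 genes fell in RPMI-8402 and 3 in TALL-1, where 21.5% and 19.6% of all genes fell. UQCRC1, a core protein on the matrix side, had the lowest change of any subunit gene on average over the lines (-0.35). In RPMI-8402 it read 9.91, 10.14 and 9.95 with DMSO and 9.42, 9.41 and 9.49 with NVS-ZP7-3, a change of -0.56 (SE 0.11, adjusted p = 0.000785, limma), or 0.678 of the DMSO level. In TALL-1 the values went from 9.02, 8.68 and 8.99 to 8.15, 8.44 and 8.63, a change of -0.49 (SE 0.11, adjusted p = 0.00178, limma). The groups did not overlap in either line, and in P12-ICHIKAWA the treated arrays were also all lower (-0.28, adjusted p = 0.155, limma). In SUPT11, where UQCRC1 was far brighter, the values ran from 11.95 to 12.08 with DMSO and from 11.90 to 12.01 with NVS-ZP7-3 (-0.08, not called). With the ACTB covariate the TALL-1 change was -0.29 and no longer called, whereas the RPMI-8402 call stood in all 19 alternatives. The other core protein, UQCRC2, was not called in any line by the probe set used (-0.13 in RPMI-8402 and 0.04 in TALL-1). Its other probe sets disagreed in RPMI-8402. The next brightest was called lower (-0.21, adjusted p = 0.00675, limma over probe sets). A far dimmer one was called higher (0.57, adjusted p = 0.0444, limma over probe sets).

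Among the small subunits of complex III, UQCRQ fell by 0.19 in TALL-1 and 0.20 in RPMI-8402, UQCR11 by 0.24 and 0.25, and UQCR10 by 0.33 in RPMI-8402 only. The difference of UQCR10 between lines did not pass the interaction test. Probe sets of UQCR11 disagreed in TALL-1, where the second and dimmer one read 0.28, so that the mean of both was 0.02 and not called. UQCRB, which lines the ubiquinone pocket, was not called in any line by the probe set used. Its dimmer probe sets gave 0.09, 0.39 and 0.51 in TALL-1. The values of 0.39 and 0.51 were called (adjusted p = 0.0015 and 0.0081, limma over probe sets). In RPMI-8402 the same probe sets gave -0.12 (adjusted p = 0.0236, limma over probe sets), -0.05 and 0.07. UQCRFS1 was not analysed here.

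Complex IV, cytochrome c oxidase, had few calls. In RPMI-8402, COX4I1 fell by 0.18 and COX5B by 0.15. The other 9 tested genes were not called there by the probe sets used, with changes between -0.10 and 0.05. Some dimmer probe sets moved further in RPMI-8402. They read -0.52 for COX5A and -0.90 for COX4I1 (adjusted p = 0.0205 and 0.00416, limma over probe sets), and 0.14 for COX7B (not called). In TALL-1, COX6C fell by 0.19, COX7B by 0.16 and COX5A by 0.14. COX7A2L rose in TALL-1. It encodes a protein related to COX7A that takes part in joining complexes III and IV. Its arrays read 14.34, 14.33 and 14.51 with DMSO and 14.60, 14.62 and 14.70 with NVS-ZP7-3. The groups did not overlap, and the change of 0.24 (SE 0.05, adjusted p = 0.00134, limma) was called in all 19 alternatives. Its changes were 0.10 in P12-ICHIKAWA, 0.06 in SUPT11 and 0.05 in RPMI-8402. The interaction F test was not called (adjusted p = 0.1401, limma), whereas TALL-1 against the mean of the other 3 lines was (0.18, adjusted p = 0.0431, limma). COX7A2L was the only subunit gene called higher on average over the lines (0.11).

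The tissue-specific isoforms of complex IV were at the floor in these cells. COX6A2, COX7A1, COX6B2, COX7B2 and COX8C never exceeded 2.18, and COX4I2, the isoform of COX4I1 known from lung and from low oxygen, never exceeded 2.28. Their counterparts COX6A1, COX7A2, COX6B1, COX7B, COX8A and COX4I1 were all tested and averaged over 13 in every DMSO group.

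In complex V, 10 of 17 genes fell in RPMI-8402 (58.8%) and 5 in TALL-1 (29.4%), where 21.5% and 19.6% of all genes fell. ATP5MC1 encodes the c subunit that forms the rotating ring, and it was the only subunit gene called in 3 lines. It read 13.26, 13.29 and 13.29 with DMSO and 12.93, 12.83 and 12.99 with NVS-ZP7-3 in RPMI-8402, a change of -0.36 (SE 0.06, adjusted p = 0.00021, limma). In TALL-1 the values went from 13.42, 13.13 and 13.30 to 12.90, 12.98 and 13.03 (-0.31, adjusted p = 0.000672, limma), and in P12-ICHIKAWA from 13.74, 13.77 and 13.72 to 13.55, 13.49 and 13.46 (-0.25, adjusted p = 0.0240, limma). The groups were apart in all 3 of these lines and overlapped in SUPT11 (-0.06). The P12-ICHIKAWA call was lost without DMSO replicate 1 (-0.24) or 2 (-0.23) and without NVS-ZP7-3 replicate 2 (-0.24) or 3 (-0.23). It was also lost with HBB as a covariate (-0.23, adjusted p = 0.138, limma). The summed level of the 5 erythroid and platelet markers was 4.50 to 4.53 on its DMSO arrays and 8.06 to 11.46 on its treated arrays, with HBB alone above log2 4 and SLC4A1, PF4 and PPBP below it on all arrays. The sum of the 7 myeloid markers was 5.12 to 5.18 and 6.2 to 8.17. The part of blood RNA in the P12-ICHIKAWA changes was not tested beyond this.

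The other genes for the same c subunit moved less: ATP5MC3 fell by 0.14 in TALL-1 and 0.13 in RPMI-8402, and ATP5MC2 fell by 0.21 in RPMI-8402. The ATP5MC2 call was lost in 7 of 19 alternatives, among them the ACTB covariate (-0.07, adjusted p = 0.505, limma), the mean of probe sets (-0.11) and leaving out DMSO replicate 1 (-0.21) or 2 (-0.18) or NVS-ZP7-3 replicate 1 (-0.19) or 2 (-0.15). Of the catalytic head, ATP5F1A, ATP5F1B and ATP5F1C (subunits alpha, beta and gamma) were not called in any line, with changes between -0.09 and 0.09. ATP5F1D, subunit delta of the rotor, read 10.41, 10.52 and 10.56 with DMSO and 10.06, 10.04 and 10.35 with NVS-ZP7-3 in RPMI-8402 (-0.34, SE 0.09, adjusted p = 0.00703, limma). Its treated arrays were lower in P12-ICHIKAWA too (-0.30, adjusted p = 0.0521, limma), but not in TALL-1 (0.01). ATP5IF1, the inhibitor of ATP hydrolysis, was not called in any line by the probe set used (-0.03 in TALL-1). Its dimmer probe sets read -0.24 (adjusted p = 0.00359, limma over probe sets) and 0.01 in TALL-1. The probe set left for ATP5MF never exceeded 2.51, and NDUFS8 and UQCRH were not analysed here.

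**Figure D2:**
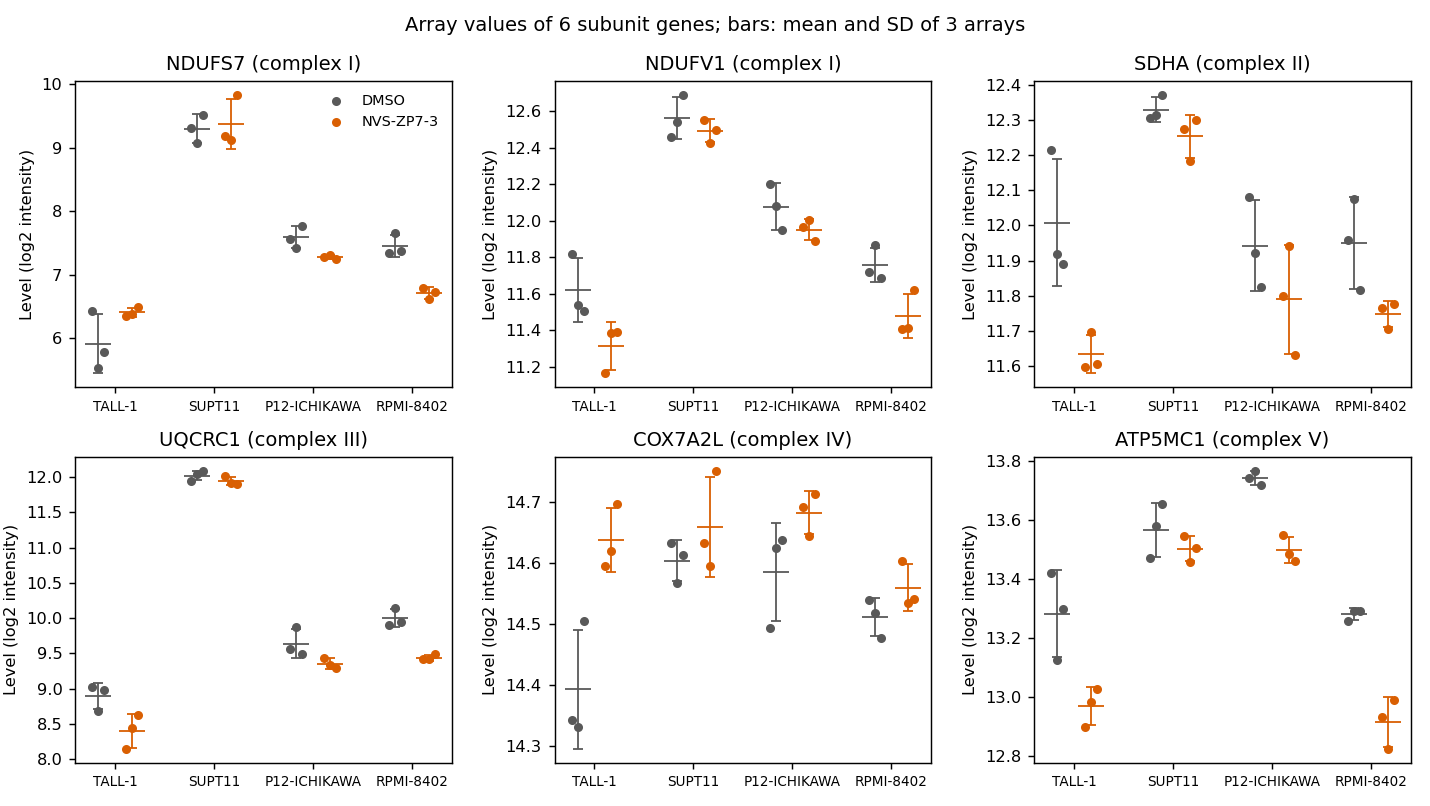
Log2 intensity on each array of 6 subunit genes with DMSO (grey) and NVS-ZP7-3 (orange), with the mean and SD of the 3 arrays; axes do not start at 0. UQCRC1 and ATP5MC1 were lower on all treated arrays of RPMI-8402, TALL-1 and P12-ICHIKAWA, and COX7A2L was higher on all treated arrays of TALL-1.

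Of the 22 genes that fell in TALL-1, 17 also fell in RPMI-8402, which is 77.3% of the TALL-1 genes and 45.9% of the 37 RPMI-8402 genes. Being lower in at least 2 lines was found for 17 of 70 subunit genes and for 10.9% of all genes tested. The 17 were NDUFA6, NDUFA12, NDUFAB1, NDUFB2, NDUFB4, NDUFB6, NDUFB8, NDUFS6, NDUFV1 and NDUFV2 of complex I, UQCRC1, UQCR11 and UQCRQ of complex III, and ATP5MC1, ATP5MC3, ATP5MK and ATP5PD of complex V. None belonged to complex II, where SDHA fell in TALL-1, or to complex IV, where 5 genes fell, each in 1 line.

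Differences between lines were called for few members. The interaction F test was called for 9 of 70 subunit genes, against 35.8% of all genes tested: 7 of complex I, UQCR11 of complex III and COX5B of complex IV. When each line was set against the mean of the other 3, the change of 7 genes differed in TALL-1 (28.6% of all genes), 5 in RPMI-8402 (18.5%), 4 in SUPT11 (15.2%) and 1 in P12-ICHIKAWA (8.38%). In TALL-1, NDUFS7 lay 0.82 above the other lines (SE 0.22, adjusted p = 0.00997, limma), NDUFV3 0.38, NDUFA1 0.23, COX7A2L 0.18 and COX5B 0.14, while NDUFA6 and COX6C lay below them (-0.25 and -0.14). In SUPT11, NDUFA6, ATP5MC1, NDUFA12 and UQCR11 lay 0.21 to 0.28 above the mean of the other lines. In RPMI-8402, NDUFS7, NDUFB10, NDUFA2, NDUFAB1 and COX5B lay -0.83 to -0.15 from the others. The number of members with an interaction was 5 without TALL-1 NVS-ZP7-3 replicate 2 or without RPMI-8402 NVS-ZP7-3 replicate 1.

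The lines differed more in their level of these genes than in the change. In DMSO, a difference among the 4 lines was called for 69 of 70 subunit genes, as for 96.3% of all genes, the exception being NDUFB8, whose DMSO means lay within 0.05 of each other. SUPT11 had the highest DMSO mean of the 4 lines for 54 of 70 genes, or 77.1%, where it was highest for 34.5% of all genes. SUPT11 was called higher than the mean of the other 3 lines for 60 of 70 genes, against 44.1% of all genes, and lower for 2, ATP5MK and NDUFAB1. The median of this difference was 0.41 over the 70 genes and 0.04 over all genes. TALL-1 lay at the other end, with the lowest mean for 41 of 70 and a median of -0.30 from the other lines. Over all genes tested it was lowest for 3387 of 10661, with a median of -0.05. All 11 tested genes of complex IV were highest in SUPT11, as were 25 of 33 in complex I, 3 of 3 in complex II, 5 of 6 in complex III and 10 of 17 in complex V.

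The widest ranges of DMSO level belonged to NDUFS7, UQCRC1 and NDUFV3, each of which was also called with the compound in TALL-1 and in another line. The next widest was that of NDUFA10 (1.62), which was not called in any line. UQCRC1 averaged 12.02 (SD 0.06, n = 3) in SUPT11, 10.00 (SD 0.12) in RPMI-8402, 9.64 (SD 0.20) in P12-ICHIKAWA and 8.90 (SD 0.19) in TALL-1. SUPT11 stood 2.51 above the mean of the other lines (SE 0.09, adjusted p = 4.6e-15, limma), further than any change of the gene with NVS-ZP7-3. NDUFS7 averaged 9.30 in SUPT11 and 5.92 in TALL-1, with P12-ICHIKAWA at 7.59 and RPMI-8402 at 7.45 between them, and these middle lines overlapped. NDUFV3 averaged 11.49 in SUPT11, 8.72 in TALL-1, 9.50 in RPMI-8402 and 10.57 in P12-ICHIKAWA, with no overlap between neighbours in level. RPMI-8402 was lowest for 18 of 70 subunit genes, and for 2063 of all 10661 genes tested. One of the 18 was COX7A2, a small subunit of complex IV, which read 13.33, 13.33 and 13.50 there where the other lines lay between 14.06 and 14.66. TALL-1 had the highest mean for 4 genes: ATP5PF, ATP5F1C and ATP5MK of the ATP synthase, and NDUFB8, for which no difference among lines was called. The ACTB difference between 3-prime and 5-prime probe sets was 1.32 in SUPT11 and 1.99 to 2.13 in the other lines with DMSO. With it as a covariate SUPT11 was called higher for 48 members in place of 60. The same count over all genes was not made with the covariate.

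**Figure D3:**
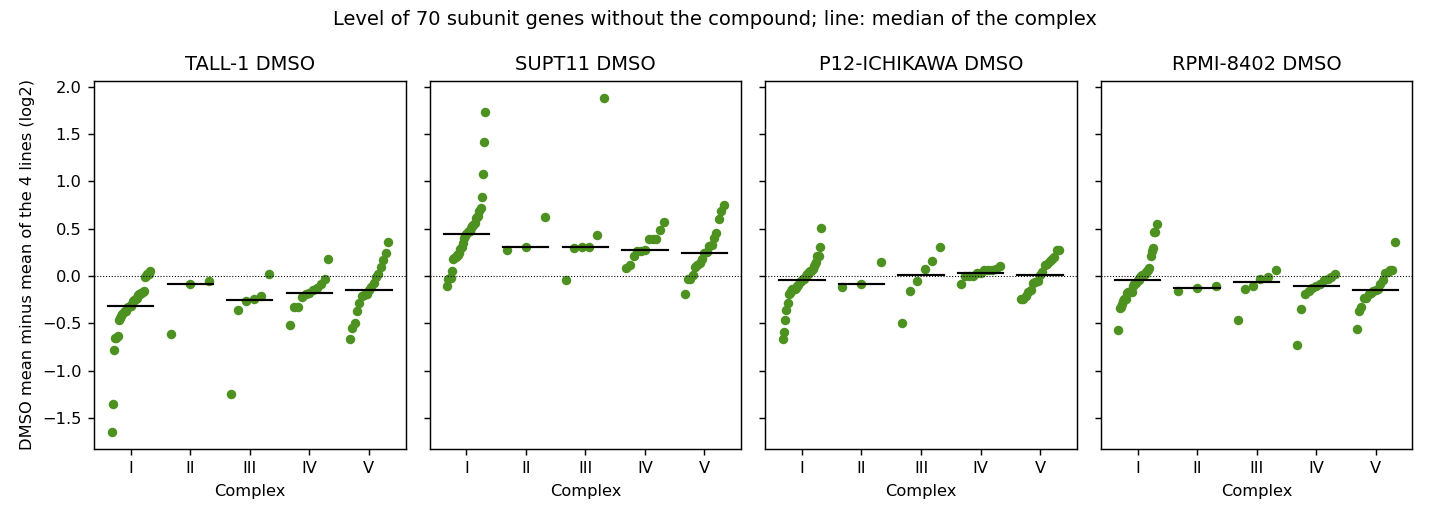
DMSO mean of each of the 70 subunit genes minus its mean over the 4 lines (log2), by complex, 1 panel per line; bars are medians of a complex. Most points of SUPT11 lie above 0, all 11 of complex IV among them, and most points of TALL-1 lie below 0.

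Promoters of subunit genes are known for sites of NRF1, GABPA (also called NRF-2) and YY1, factors that act on many nuclear genes for mitochondria. Windows from 250 bases before to 50 after the start were taken from RefSeq (GRCh38.p14), the first listed start per gene, and matched 62 of the 70 tested subunit genes. The letters GCATGCGC (NRF1) were found on either strand in 12 of 62 windows (19.4%) and in 3.27% of all 27305 promoters, CCGGAAGT (GABPA) in 9 (14.5%) and 4.44%, and AAGATGGC (YY1) in 10 (16.1%) and 3.03%. Among promoters of all genes tested the shares were 5.92%, 9.5% and 5.9%. For the genes that fell in both TALL-1 and RPMI-8402, 16 of which had a window, the counts were 3, 4 and 2, and for the other 46 they were 9, 5 and 8. The letters TGATGCAA, from the element bound by CHOP and ATF4, occurred in 0 of 62 windows, in 0.923% of all promoters and in 0.51% of those of genes tested, so that a count of 0 in 62 lies near the background. The stretches below are 60 bases before the start of genes whose array values are given above or that fell in both lines, 5′ to 3′ on the strand of the gene, with the match in capitals. They lie at chr19:1383812-1383871 (NDUFS7, plus strand), chr5:1801339-1801398 (NDUFS6, plus strand), chr22:42090901-42090960 (NDUFA6, minus strand) and chr5:132866566-132866625 (UQCRQ, plus strand).
NDUFS7: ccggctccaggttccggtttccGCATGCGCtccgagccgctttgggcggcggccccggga
NDUFS6: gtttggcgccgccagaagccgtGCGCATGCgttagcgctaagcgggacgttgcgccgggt
NDUFA6: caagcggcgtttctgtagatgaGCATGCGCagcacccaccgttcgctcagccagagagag
UQCRQ: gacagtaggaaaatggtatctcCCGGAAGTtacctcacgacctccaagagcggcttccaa
The NRF1 letters stand in the promoters of NDUFS7, NDUFS6 and NDUFA6 (in NDUFS6 on the other strand), and those of GABPA in that of UQCRQ. The windows of NDUFS7 and NDUFA6 also held the YY1 letters, past the start and outside these stretches. NDUFS7 was called higher and NDUFS6 and NDUFA6 lower in TALL-1, and all 3 fell in RPMI-8402. In TALL-1 the NDUFS7 call was lost in 12 of 19 alternatives and the NDUFS6 call in 2.

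The genes of the mitochondrially encoded subunits are transcribed from the mitochondrial genome by its own polymerase. Of the 7 measured (ND2, ND4 and ND6 of complex I, COX1, COX2 and COX3 of complex IV, and ATP6 of complex V), 0 fell in any line by limma, also at an unadjusted p under 0.05, and COX1 rose by 0.18 in P12-ICHIKAWA (adjusted p = 0.0453, limma). All 7 changes were positive in P12-ICHIKAWA, up to 0.37, and 3 of the 7 were higher there at an unadjusted p under 0.05 (limma), as were 1170 of the 10661 genes tested. Their changes lay between -0.11 and 0.17 in TALL-1 and RPMI-8402. Some subunits share the work but not the naming rule. CYC1, cytochrome c1 of complex III, fell by 0.39 in TALL-1 and 0.41 in RPMI-8402, and COXFA4, formerly NDUFA4 and a subunit of complex IV, fell by 0.12 and 0.15. CYCS, cytochrome c itself, was not called in any line.

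Genes that build the complexes fell in RPMI-8402 as well, where 21.5% of all genes tested fell and 15.1% rose. Of the assembly factors, 13 of 20 fell for complex I, 2 of 4 for complex II, 4 of 8 for complex III, 16 of 26 for complex IV (1 rose) and 2 of 5 for complex V. The copper chaperone SCO2 fell by 1.33 and SCO1 by 0.75 in RPMI-8402, and SLIRP, which stabilises mitochondrial mRNA with LRPPRC, fell by 0.78. In TALL-1 the assembly factors went both ways, as did all genes tested, of which 19.6% fell and 22.3% rose. For complex I, 6 fell (30%) and 2 rose (10%), and for complex IV 8 fell (30.8%) and 6 rose (23.1%). The counts were 0 and 1 for complex II, 1 and 1 for complex III and 2 and 0 for complex V. NDUFAF8 and NDUFAF5 of complex I fell by 0.63 and 0.60 in TALL-1 and by 0.58 and 0.65 in RPMI-8402, whereas COX19 of complex IV rose by 1.11 in TALL-1. In P12-ICHIKAWA 2 fell and 1 rose for complex IV and UQCC6 of complex III fell by 0.28, and none was called in SUPT11. Over all genes tested, 2.98% fell and 4.91% rose in P12-ICHIKAWA, and 0.582% fell and 1.18% rose in SUPT11.

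The lists that follow are to be read against the 21.5% of all genes that fell in RPMI-8402, and the 19.6% that fell and 22.3% that rose in TALL-1. Among regulators of mitochondrial transcription and biogenesis, 8 of 13 fell in RPMI-8402 and 5 in TALL-1, where 1 rose. PPRC1, a coactivator related to PGC-1, fell by 0.79 in TALL-1 and 0.48 in RPMI-8402. PPARGC1B fell by 1.02 and the mitochondrial RNA polymerase POLRMT by 0.83 in RPMI-8402. Of the carriers of ATP, ADP and phosphate with the outer membrane channels, 5 of 6 fell in RPMI-8402 and 3 in TALL-1, and the phosphate carrier SLC25A3 fell by 0.44 in TALL-1, 0.11 in RPMI-8402 and 0.17 in P12-ICHIKAWA. Of 18 citric acid cycle genes 6 fell in RPMI-8402, and 5 fell (27.8%) and 2 rose in TALL-1. Among 18 genes for ubiquinone synthesis and other electron inputs, 7 fell in RPMI-8402, 3 in P12-ICHIKAWA and 5 (27.8%) in TALL-1, where 6 rose (33.3%). PDSS1, which makes the ubiquinone tail, fell by 1.13 in TALL-1, 0.85 in RPMI-8402 and 0.49 in P12-ICHIKAWA. As a check of treatment, 5 of 6 target genes of ATF4 and CHOP rose in TALL-1, RPMI-8402 and P12-ICHIKAWA and 2 in SUPT11, with DDIT3, which encodes CHOP, up by 3.28, 4.56, 2.71 and 2.51.

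**Figure D4:**
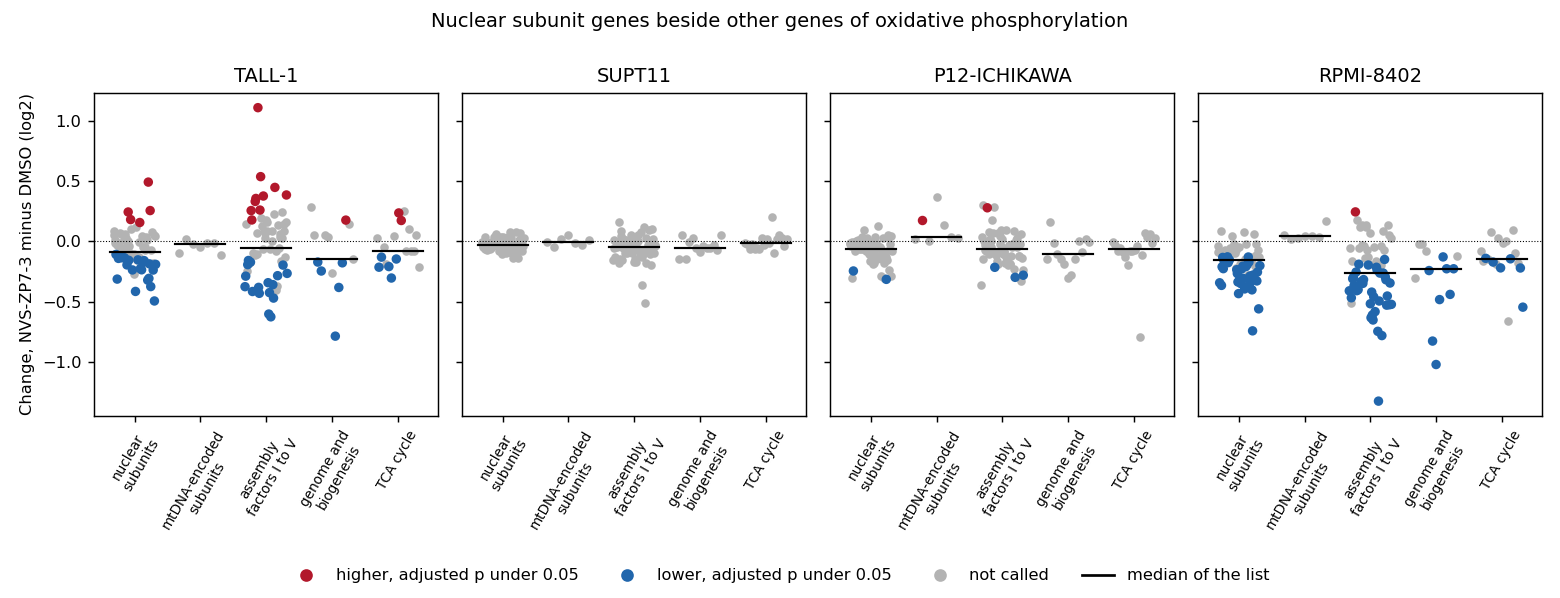
Change in log2 intensity (NVS-ZP7-3 minus DMSO) of the 70 nuclear subunit genes, 7 mitochondrially encoded subunits, assembly factors of complexes I to V, regulators of mitochondrial transcription and biogenesis, and citric acid cycle genes, with 1 panel per line. Points are genes, coloured where called, and bars are medians; no mitochondrially encoded gene was called lower.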

How the data were processed

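RNA of 24 samples (4 lines, 2 treatments, 3 arrays each) was hybridised to Affymetrix U133 Plus 2 arrays. The authors deposited log2 expression values; GCRMA and limma are named in the submitters' processing notes, with neither version nor settings. GCRMA sets undetected probe sets at a common floor. The number of arrays limits the precision.

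Names of the 54675 probe sets came from the platform's annotation, updated to RefSeq symbols of GRCh38.p14 (41097 with 1 gene, 1801 with several, 11777 with none). The probe set with the highest mean stood for a gene, and the 10661 genes that reached log2 4 on 3 or more arrays were tested. In R 4.3.3, limma 3.58.1 fitted 8 group means to all arrays (16 residual degrees of freedom), a step tested on simulated data, and Benjamini-Hochberg adjustment ran over all genes tested.

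The members and lists were chosen with earlier results of these data known. Genes named were, in each line, up to 6 of the largest rises and falls called, up to 6 with the widest range of change or of DMSO level, key members of each complex, and up to 4 called per other list. The choice of members shown array by array, of further accessory genes and of promoter stretches was made after values were seen. An array was taken to carry foreign transcripts when at least 1 in 3 of the genes near the floor in its line and at log2 10 or more in all other lines were raised there by 0.5 or more. Alternatives were other filters, scalings, probe sets, covariates, thresholds and arrays left out. The adjusted p-values describe single genes, and no test was made over a list.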

Additional observations from a re-analysis of the deposited data

Results flagged for a closer look

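For 9 subunit genes the change with NVS-ZP7-3 differed between lines by the interaction F test (limma). For NDUFS7, the core iron-sulfur subunit of complex I, the range of change over the lines was 1.23 on the log2 scale, from -0.74 in RPMI-8402 to 0.49 in TALL-1. NDUFV3 had a range of 0.57, highest in TALL-1 and lowest in P12-ICHIKAWA. NDUFA6 (0.40) and NDUFA12 (0.27) were lowest in TALL-1 and highest in SUPT11. NDUFB10 (0.31), UQCR11 (0.28) and NDUFB6 (0.23) were lowest in RPMI-8402 and highest in SUPT11. NDUFA1 (0.28) and COX5B (0.22) were highest in TALL-1 and lowest in RPMI-8402. The share of subunit genes with such a difference was below the 35.8% of all genes tested. Groups of 3 arrays were too small for a test of single outlying arrays.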

How the results depend on the processing

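The fall of members in RPMI-8402 and the DMSO differences kept their direction and stayed within 1.5 times of their counts under all alternatives, except the ACTB covariate for RPMI-8402 (20 in place of 37). In TALL-1, 27 members were called, and 7 with the ACTB covariate, 17 without the 3 arrays with foreign transcripts, 11 with TALL-1 fitted alone and 14 at an adjusted p under 0.01; leaving out 1 array gave 16 (without TALL-1 NVS-ZP7-3 replicate 1) to 28. In P12-ICHIKAWA, 2 were called, and 5 after median centring or with an intensity trend, 4 after quantile normalization, 0 with the HBB covariate or at an adjusted p under 0.01, and 1 with no filter, the mean of probe sets, the ACTB covariate, the line alone, without the 3 arrays or with the replicate number as a block. Leaving out 1 array gave 0 (P12-ICHIKAWA DMSO replicate 2 or NVS-ZP7-3 replicate 3) to 5 (TALL-1 DMSO replicate 1), with 4 without TALL-1 NVS-ZP7-3 replicate 1 or 3. The block changed no other count by over 1.5 times. The numbers were not taken as pairs because no source states that they pair samples. Same-numbered arrays correlated at -0.14 to 0.42, with 3 of 12 over 0.1, which does not settle whether they pair. The interaction was called for 9, 18 with an intensity trend, 4 without the 3 arrays, and 5 to 12 with 1 array left out. In SUPT11, 0 were called throughout, and the median change of -0.0328 was -0.039 after median centring, -0.0423 after quantile normalization, -0.0164 with the HBB covariate, -0.0207 without the 3 arrays, and -0.0491 to -0.0197 with 1 array left out. UQCR11 in TALL-1 turned to 0.021 (adjusted p = 0.941, limma) with the mean of probe sets, since its probe sets disagreed; the causes of the other shifts were not tested. Median centring moved the median of all genes in TALL-1 by -0.05, with 2033 rises and 2545 falls in place of 2377 and 2094. Array signals of the low NDUFS7 limit its precision.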
